A study of Mus musculus with 5 samples.

Results

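The mouse expression array carries, beside its probes for named transcripts, groups of probes that are listed only by a genomic interval and a strand. A total of 1539 such intervals, out of 4607 with a strand on the array, had at least 3 probes well above background on at least 2 of the 5 arrays and are described here. An interval was defined by identical coordinates, which refer to build mm9, and by the letter F or R that the array design gives for the strand. "Well above background" is the flag that the scanner software sets when a spot's signal clearly exceeds its local background, so the members were chosen by detection. Detection in a single group could suffice, so the choice is not independent of the difference between groups. The interval names say neither that the RNA is noncoding nor which gene it belongs to. The members are therefore called intervals throughout, and gene names and sequences of the intervals are not used here.

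The samples were total RNA from 3 gliomas and 2 normal brains of mice, all taken at postnatal day 150. The gliomas came from a model labelled MADM, mosaic analysis with double markers, a genetic scheme in which recombination between homologous chromosomes produces sparse, colour-marked mutant cells. The labels name neither the mutated genes nor the strain, and they give no age or tissue that differs between the groups other than the tumour itself. The replicates are numbered without a statement that each is a separate animal, so each p-value refers only to the spread among these 5 samples, which may be partly technical.

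Long intergenic noncoding RNAs are transcripts made largely like messenger RNAs, often capped, spliced and polyadenylated, but without a long open reading frame. Many are present at few copies per cell and in few cell types, and brain expresses an unusually wide range of them. Some act on chromatin at the locus they are transcribed from, some host microRNAs in their introns or exons, and for most no function is known. Array designs of this generation covered candidate loci by interval probes on one or both strands, because transcript ends and strands were often unsettled.

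Between 65.9% and 70.3% of the spots were detected on the glioma arrays and between 61.5% and 64.0% on the normal brain arrays, with 0 saturated. The arrays shared 1 slide, on which gliomas and normal brains occupied different rows, so slide row and group cannot be told apart. The tissue labels were checked against marker genes. Of 10 oligodendrocyte progenitor markers, all 10 were higher in glioma, with a summed signal between 314 and 365 against 36.1 to 36.7 in normal brain, where a signal of 1 is the array's 75th percentile. All 10 pan-neuronal markers were lower, at 52.8 to 78.5 against 528 to 529, and all 9 tested markers of G2 and mitosis were higher. All 10 choroid plexus markers were lower as well, at 29.3 to 30.5 against 358 to 371, as were 4 of 5 red blood cell markers, at 4.59 to 6.31 against 72.0 to 82.7. The astrocyte list gave 1 higher and 4 lower, the mature oligodendrocyte list 0 higher and 8 lower, and the microglia and macrophage list 4 higher and 0 lower, each of 10. Many of these markers differ between the same groups as the intervals below, and their part in those differences was not tested. In such bulk samples, fewer cells of a type and less RNA per cell cannot be told apart. Xist, the RNA made from the inactive X chromosome, was well above background only in glioma 3, at 0.01 against at most -7.03 on the other arrays, and the Y-linked Ddx3y and Eif2s3y only on the other 4 arrays, so glioma 3 differs in sex from every other sample.

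The members carried 7367 probes, of which 6105 were detected on at least 2 arrays. Most members were covered by few probes: 653 had 3 on the array, 475 had 5 and 125 had 10. They split into 758 F and 781 R intervals and spanned from 199 to 533972 bp, with a median of 13651 bp. Many overlap, and merging overlapping intervals of one strand left 1276 separate loci. Of the 3382 intervals with at least 3 probes on the array, 45.5% passed the detection rule. The other 1225 intervals have fewer probes and could not pass it.

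The value of an interval on an array is the mean, over its detected probes, of the log2 signal after the array's own 75th percentile is subtracted, so that 0 is the 75th percentile and each unit is a doubling. A change is the glioma mean minus the normal brain mean on that scale. The members were dim: their median signal over all arrays was -3.40, against -1.45 for all targets tested, and 1303 of 1539 lay below the latter. Probes differ in how strongly they hybridise, so signals rank probes only roughly and are not set against each other as amounts of RNA.

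Across the 28334 targets tested with limma, 44.0% passed an adjusted p of 0.05, 21.8% higher and 22.2% lower in glioma. Among the 1539 members 535 passed, 336 higher and 199 lower, which is 21.8% and 12.9% of them. The higher share therefore equals the background and the lower share is below it. The called change was at least 2-fold in 241 members that rose (15.7%) and 133 that fell (8.64%), against 14.9% and 16.3% of all targets. The glioma values lay wholly above the normal brain values in 596 members and wholly below in 361, together 62.2%, where 69.0% of all targets showed such a separation. The median log2 change was 0.16 in members and 0.02 in all targets.

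**Figure D1:**
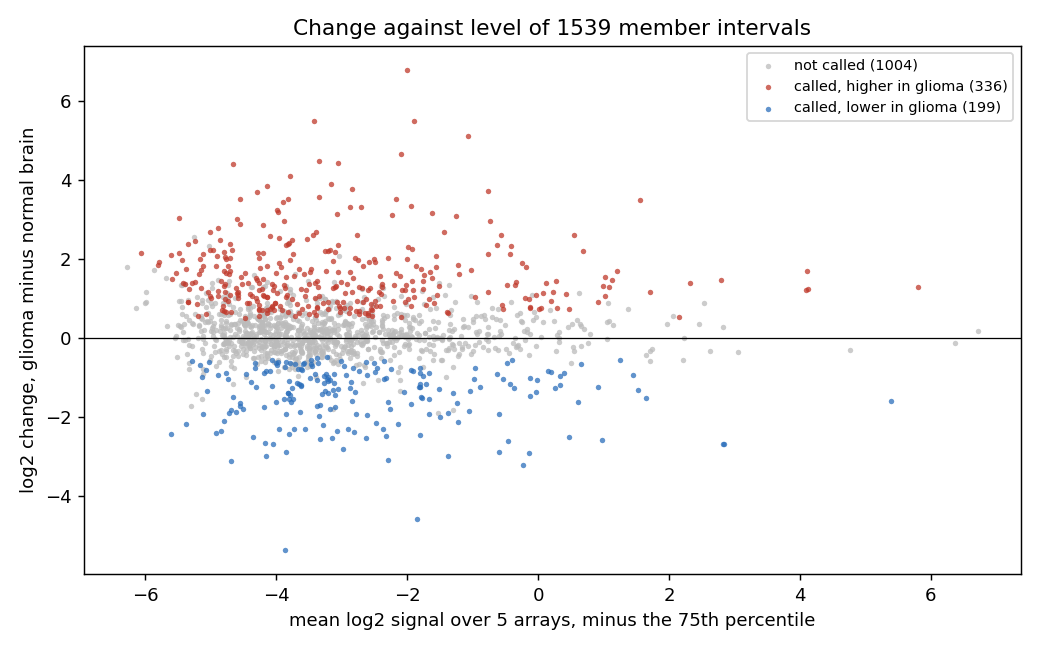
Each point is 1 of the 1539 member intervals, with its mean log2 signal over the 5 arrays on the x axis and the log2 change, glioma minus normal brain, on the y axis. Red points are the 336 intervals called higher in glioma, blue points the 199 called lower and grey points the 1004 not called. The called points run from a change of -5.38 to one of 6.78.

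The balance between rises and falls moved with the scale. Background correction by normexp, a model that shrinks dim signals together, gave 169 higher and 255 lower intervals and a median change of -0.11, with 18.8% and 26.2% of all targets. The deposited values without any scaling between arrays gave 570 higher and 130 lower intervals, with 32.2% and 15.0% of all targets and a median over all targets of 0.38. Without normal brain 1 the calls fell to 145 higher and 86 lower, when 21.4% of all targets were called in either direction, and without normal brain 2 to 134 higher and 90 lower, when 21.4% were.

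An interval could pass the detection rule through 1 group alone. In 350 members fewer than 3 probes were detected in both groups, and the rest that counted were detected only in glioma arrays. In 13 members the same held with probes detected only in normal brain arrays. Members with at least 3 probes detected in both groups can also hold probes detected in glioma only, and these are not in the count. No probe was detected in normal brain in 41 members, while none lacked detection in glioma. The direction of such members follows from how they were detected, so nothing is read from it. Among the 1172 members with at least 3 probes detected in both groups, 196 were higher and 185 lower, with a median change of 0.02. These are 16.7% and 15.8% of them, below the 21.8% and 22.2% of all targets, which were not restricted in this way. By signal, 122 of the 513 dimmest members were higher and 41 lower, or 23.8% and 7.99%, against 17.5% and 16.6% of all targets in the same signal range. The 513 members of intermediate signal gave 93 and 77, or 18.1% and 15.0%, against 18.1% and 21.8%. The 513 brightest gave 121 and 81, or 23.6% and 15.8%, against 24.2% and 24.3%.

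The 10 largest rises and falls are given for called members with at least 3 probes detected on all 5 arrays and no overlap between groups. The rise with the largest change was chr9:14460976-14488051 F, measured by 5 probes. Its values were 0.61, 1.03 and 0.52 in gliomas 1 to 3 and -2.95 and -3.07 in normal brains 1 and 2. The change was 3.73 ± 0.21 (SE), a 13.2-fold difference (adjusted p = 0.000652), and single probes gave between 3.52 and 3.86. The gliomas lay close together, and each was more than 3 log2 units above both normal brains.

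The next rise was chr1:175654606-175672031 R, at -2.60, -0.99 and -2.18 in glioma and -5.48 and -5.48 in normal brain (3.55 ± 0.49, adjusted p = 0.00426). Glioma 2 was the highest there, and all gliomas remained above normal brain. The chr14:115443612-115445950 F interval stood at -0.55, -0.61 and -1.13 against -4.28 and -4.26 (3.50 ± 0.22, adjusted p = 0.000765), with its 3 probes between 3.44 and 3.60. Mir17hg, the host transcript of the miR-17-92 microRNA cluster, is a chromosome 14 gene with its own probes on the array and rose by 3.28 ± 0.23. Whether its probes and the interval measure the same RNA was not tested.

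The brightest of these 10 rises was chr4:124127144-124334840 R, an interval of 207697 bp. It read 2.56, 2.43 and 3.87 in the gliomas and -0.56 and -0.52 in normal brain (3.50 ± 0.47, adjusted p = 0.00396). Its 5 probes gave 3.38 to 3.62, so probes of this interval recorded nearly the same change. The F strand of the same coordinates changed by 0.67 ± 0.25 and did not pass (adjusted p = 0.0803).

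The remaining 6 rises lay between 2.59 and 3.32. They were chr13:112717680-112733330 R (3.32 ± 0.26), chr17:34018371-34019394 R (3.16 ± 0.27), chr4:146507925-146532650 R (3.10 ± 0.17), chr5:152006587-152008784 R (2.95 ± 0.49), chr7:31709550-31723025 F (2.69 ± 0.28) and chr3:88009045-88036270 F (2.59 ± 0.25). The last is covered by 10 probes, with changes from 1.30 to 3.93. Of these, 2 were detected only in glioma, at 1.30 and 2.03, so their direction follows from detection. The 8 probes detected on all arrays changed by 2.34 to 3.93. The chr13 interval is less uniform, since its 8 probes ran from -0.05 to 6.50. With its brightest probe in place of the mean it changed by 0.22 (adjusted p = 0.448), and with probes detected on all arrays by 0.54 (adjusted p = 0.0832). The chr7 interval likewise dropped to 0.62 (adjusted p = 0.235) with its brightest probe. The chr5 interval missed the threshold without normal brain 1 (2.77, adjusted p = 0.0516).

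With normexp 8 of these rises were smaller by over 1.5 times. The chr9 interval then changed by 3.00, the chr1 interval by 1.53, the chr14 interval by 2.12, the chr13 interval by 1.51, the chr17 interval by 2.27, the chr4:146507925 interval by 1.89, the chr7 interval by 1.86 and the chr3 interval by 1.93. All 8 remained called under that setting.

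Falls among well-detected intervals began with chr8:83210957-83219451 F. Its values were -4.17, -3.51 and -3.40 in the gliomas and 0.83 and 0.96 in normal brain. The change was -4.59 ± 0.27 (adjusted p = 0.000697), or 24.1-fold lower in glioma, and its 3 probes gave -4.64 to -4.54. With normexp the change was -3.64, still called. No other well-detected interval without overlap changed this much in either direction.

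The chr9:51905865-51911474 F interval stood at -1.38, -1.91 and -1.27 against 1.73 and 1.66 (-3.22 ± 0.24, adjusted p = 0.000887). The chr5:73771801-73772662 F interval stood at -2.97, -3.53 and -4.07 against -0.51 and -0.36 (-3.09 ± 0.34, adjusted p = 0.00229), and at -2.34 with normexp. In both, all 3 probes gave changes within 0.3 of each other and the groups lay far apart. On the same chromosome, chr5:35975265-35982561 F read -1.07, -1.43 and -1.43 against 1.70 and 1.50 (-2.91 ± 0.19, adjusted p = 0.000765).

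The remaining falls were chr12:110973190-110987668 F (-2.998 ± 0.25) and 2 overlapping chromosome 3 intervals, both described below with their neighbours, and 3 intervals that lost their call when an array was left out. Without 1 normal brain the remaining one is assumed to vary like the gliomas, and calls over all targets dropped from 44.0% to 21.4%. For chr13:56851404-56851796 R the values were -2.29, -2.56 and -0.45 against 1.15 and 1.12 (-2.90 ± 0.67, adjusted p = 0.0207). Glioma 3 was nearer to normal brain than the other gliomas, and without it the change was -3.56. The call was lost without glioma 1, without glioma 2 and without either normal brain, at adjusted p from 0.0556 to 0.0925, with a change of -2.88 without normal brain 1 and -2.92 without normal brain 2. The chr8:93337794-93348869 R interval (-2.63 ± 0.57, adjusted p = 0.0175) was lost without either normal brain, at changes of -2.76 and -2.50 (adjusted p = 0.0728 and 0.0907). The chr7:91558475-91733625 F interval (-2.82 ± 0.49, adjusted p = 0.00849) was lost without normal brain 2 (-2.60, adjusted p = 0.0564) and shrank to -1.91 with normexp.

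**Figure D2:**
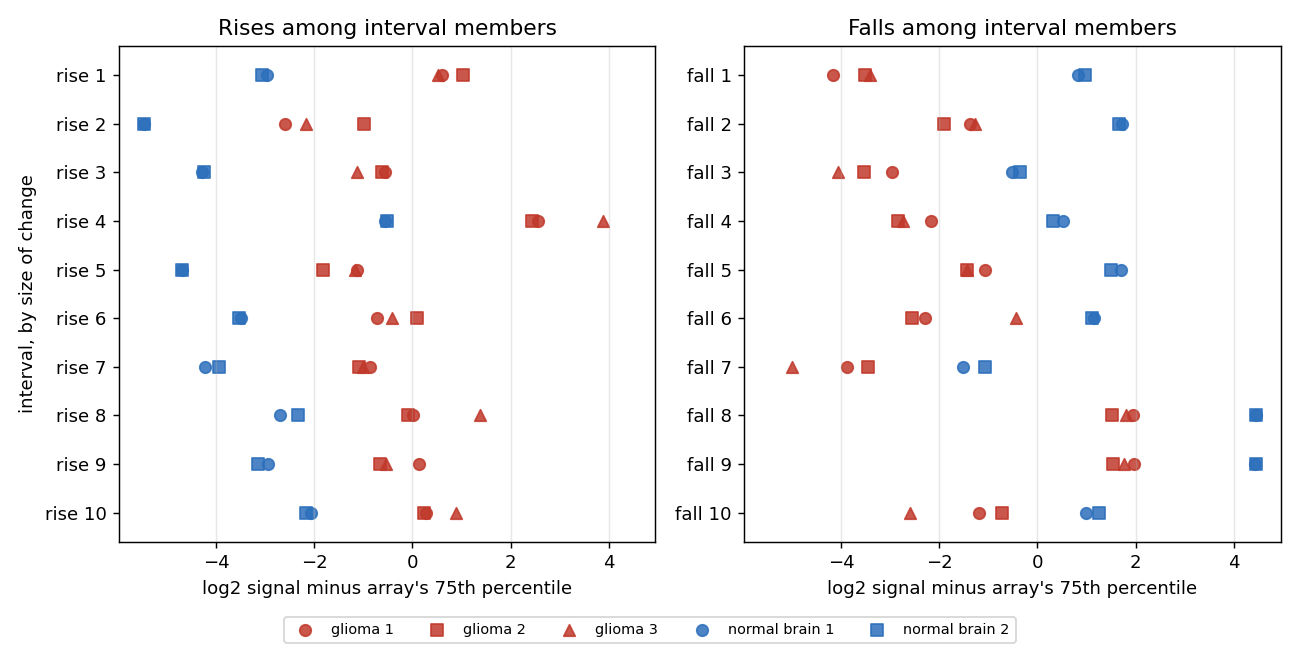
The log2 signal minus the array's 75th percentile (x axis) is shown on each array for the 10 largest rises (left) and 10 largest falls (right), ordered from the largest change at the top, among called intervals with at least 3 probes detected on all arrays and no overlap of the groups. Red symbols are gliomas and blue symbols normal brains, with circle, square and triangle for replicates 1, 2 and 3. Rise 1 is chr9:14460976-14488051 F, with a change of 3.73, and fall 1 is chr8:83210957-83219451 F, with a change of -4.59. Red and blue symbols are apart in every line.

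In 24 further members every glioma array detected at least 3 probes while no normal brain array detected any of the interval's probes, so that the normal brain value is only an upper limit. For these the glioma mean was set against the lowest signal that counted as detected on each normal brain array, or against the probe's own signal where that was higher. No interval gave a bound in the opposite direction. The bound exceeded 2-fold in 12 of the 24. These members passed detection through glioma, so their direction follows from the selection.

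The interval with the largest bound was chr1:186560855-186563399 F. Its glioma values were 0.95, -0.12 and 1.31, above or near the 75th percentile of their arrays, and its measured normal brain values were -6.04 and -6.10. It was at least 60.5-fold higher in glioma (fitted change 6.78 ± 0.44, adjusted p = 0.000765), and its 3 probes changed by 5.88 to 7.65. No probe of it was well above background in either normal brain.

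The other 4 large bounds were smaller. The chrX:50407969-50410370 R interval, at -2.73, -0.99 and -2.73 in the gliomas, was at least 8.52-fold higher. The chr18:5162836-5165729 R interval was at least 5.62-fold higher, chr18:69175804-69178594 F at least 5.37-fold and chr4:89088538-89130181 F at least 5.08-fold. In all 5, each glioma lay above each normal brain, which follows from their selection by detection in glioma alone. With normexp the fitted changes were 4.03, 1.51, 1.10, 1.10 and 1.28 in the same order.

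Several of the brightest intervals differed little between groups. The chr17:17481706-17482457 R interval had the highest mean signal, at 6.85, 6.70 and 6.80 in glioma and 6.65 and 6.58 in normal brain (0.17 ± 0.14, adjusted p = 0.371). With the unscaled deposited values it passed, at 0.53 (adjusted p = 0.0463). The chr19:5801802-5802597 R interval read 6.08, 6.18 and 6.69 against 6.48 and 6.42 (-0.13 ± 0.23, adjusted p = 0.682), with normal brain inside the range of the gliomas. Its neighbour chr19:5798135-5800557 R read 4.23, 4.46 and 5.21 against 4.92 and 4.98 (-0.32 ± 0.32, adjusted p = 0.462), and glioma 3 was the highest array in both. Without glioma 3 the second of them passed, at -0.61 (adjusted p = 0.0350).

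The other 2 of the 5 brightest did change. The chr6:116123643-116124550 F interval rose, from 5.10 and 4.98 in normal brain to 6.35, 6.28 and 6.32 in glioma (1.27 ± 0.14, adjusted p = 0.00217). The chr2:156213798-156216885 R interval fell, from 6.44 and 6.27 to 4.72, 4.60 and 4.88 (-1.62 ± 0.16, adjusted p = 0.00176). In both the 3 probes differed by less than 0.1 in their change, and the groups were far apart relative to their spread.

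In some groups of neighbouring intervals several calls had the same direction. Members of one chromosome, on either strand, were joined where the gap between them was at most 20000 bp, which gave 388 stretches of at least 2 members holding 1023 of the members. Overlapping intervals can be parts of 1 transcript and share RNA, so the members of a stretch are not independent. Of the 26 stretches with at least 5 members, 10 had at least 3 calls in 1 direction, 6 of them mostly higher and 4 mostly lower.

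The largest group of falls lay on distal chromosome 12. In a window from 110842149 to 110988678 bp, joined at gaps of up to 50000 bp and chosen after its values were seen, all 10 members were called lower in glioma, 7 F and 3 R, out of 14 intervals on the array. Their changes ran from -1.51 to -2.998, with a median of -2.40, and in every one all gliomas lay below both normal brains. Glioma 2 was the lowest glioma in 9 of the 10.

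The chr12:110973190-110987668 F interval stood at -2.16, -2.83 and -2.74 against 0.52 and 0.32 (-2.998 ± 0.25, adjusted p = 0.00115). It lies within chr12:110944403-110988678 F, an interval of 44276 bp whose 10 probes all decreased, by -0.89 to -3.42, with values of -3.67, -3.88 and -3.75 against -1.15 and -1.63 (-2.38 ± 0.20, adjusted p = 0.00114). The R strand of the same coordinates was dimmer and also fell, at -4.99, -5.47 and -5.21 against -3.31 and -3.55 (-1.79 ± 0.20, adjusted p = 0.00242). Both strands thus moved down together at this locus.

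The smallest fall of the window was chr12:110967974-110969051 F (-1.51 ± 0.22, adjusted p = 0.00470), a short interval of 1078 bp at -5.44, -5.36 and -4.98 against -3.58 and -3.92. All 10 remained called when any single array was left out. With normexp all 10 were called with a median of -1.44, with the brightest probe 8 of 10 and with probes detected on all arrays 9 of 10. Meg3 and Mirg are maternally expressed noncoding RNAs of an imprinted cluster on chromosome 12 and have their own probes. Meg3 fell from 4.72 and 4.47 to 2.33, 1.98 and 2.51 (-2.32 ± 0.22, adjusted p = 0.00145). Mirg, a host of microRNAs, fell from 3.68 and 3.66 to 0.87, 0.12 and 0.39 (-3.21 ± 0.25, adjusted p = 0.00102). Their positions relative to the window were not tested, since their coordinates are given on another build.

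A smaller group of falls lay on chromosome 3, between 146515333 and 146649125 bp (gaps up to 100000 bp, also chosen after its values were seen). All 4 members fell. The bright chr3:146645022-146646977 F interval read 1.95, 1.51 and 1.81 against 4.46 and 4.45 (-2.70 ± 0.18, adjusted p = 0.000796), and chr3:146629425-146649125 F, which contains it, read 1.96, 1.53 and 1.76 against 4.43 and 4.44 (-2.68 ± 0.18, adjusted p = 0.000793). The R strand of the containing interval was much dimmer, at -5.06, -5.47 and -5.22 against -3.34 and -3.71, and fell by less (-1.73 ± 0.21, adjusted p = 0.00278). Upstream on the chromosome, chr3:146515333-146557069 F stood at -0.08, -0.13 and 0.02 against 2.32 and 2.73 (-2.59 ± 0.18, adjusted p = 0.000837). The 4 members were called lower in every alternative computed, leaving out each array included.

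Further mostly lower stretches were chr5:121759042-121792814, with 5 of 6 members lower, and chr6:31007184-31293337, with 5 of 8 lower. In the chromosome 5 stretch the 5 falls lay between -0.92 and -1.36, and the sixth member, chr5:121765763-121768660 F, changed by 0.14 ± 0.28 (adjusted p = 0.709). The chromosome 6 stretch had 3 calls without glioma 2 and 1 without either normal brain, whereas the chromosome 5 stretch had 3 without normal brain 1 and 4 without normal brain 2.

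The stretch with the most uniform rises was chr17:39960567-39992817, where all 5 members were higher by 1.20 to 1.69. Its members were bright: chr17:39983902-39985688 F read 4.69, 4.74 and 4.90 in glioma and 3.14 and 3.05 in normal brain (1.68 ± 0.15, adjusted p = 0.00130), and chr17:39982023-39983277 F read 4.39, 4.50 and 4.83 against 3.41 and 3.33 (1.20 ± 0.19, adjusted p = 0.00616). Both strands of the full interval rose, F by 1.46 ± 0.19 and R by 1.40 ± 0.22. The 5 calls fell to 3 without normal brain 2 and to 4 with the brightest probe, and stood at 5 in all other alternatives.

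On chromosome 1, chr1:139713316-139913366 held 7 members, 6 of them called higher. The 5 short F intervals inside it rose by 1.36 to 1.74, and the long interval that contains them rose by 0.70 ± 0.21 on the F strand (adjusted p = 0.0495) and changed by 0.72 ± 0.23 on the R strand (adjusted p = 0.0545). The brightest of them, chr1:139822286-139822985 F, stood at 1.38, 1.35 and 2.19 against 0.03 and 0.19 (1.53 ± 0.31, adjusted p = 0.0133). Without normal brain 1 only 1 of the 7 remained called, and without normal brain 2, 3 did. The other stretches with mostly higher calls were chr1:42689799-42771337 with 4 of 5, chr4:131734714-131742542 with 3 of 5, chr11:95627874-95658549 with 3 of 5 and chr18:35967933-35986564 with 3 of 6. None of these 4 had over 1 call without normal brain 1 or any call without normal brain 2, without glioma 1 or glioma 3 the chr4 stretch had 1, without glioma 2 the chr18 stretch had 1, and with normexp the chr18 stretch had 0 calls, chr1:42689799-42771337 had 1 and the chr4 stretch 2.

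In the stretch chr13:94180737-94203935, which has 8 members, the calls divided by strand. Its 4 called falls were all F and its 2 called rises both R. The chr13:94180737-94182912 F interval fell from 0.77 and 0.75 to -0.56, -0.85 and -0.73 (-1.47 ± 0.16, adjusted p = 0.00202). The chr13:94193230-94193710 F interval fell from -1.70 and -1.62 to -4.27, -4.44 and -3.37 (-2.36 ± 0.35, adjusted p = 0.00541). On the other strand chr13:94200051-94200598 R rose from 0.99 and 1.05 to 2.16, 1.88 and 2.47 (1.16 ± 0.21, adjusted p = 0.0105), and chr13:94182877-94203935 R rose by 1.15 ± 0.23 (adjusted p = 0.0129). In each of these 4 the gliomas lay wholly on one side of normal brain. The long interval chr13:94182877-94203852 was called on neither strand. It changed by 0.39 ± 0.36 on F (adjusted p = 0.415) and by 0.29 ± 0.25 on R (adjusted p = 0.388). Without either normal brain, 3 of the falls and none of the rises were called.

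**Figure D3:**
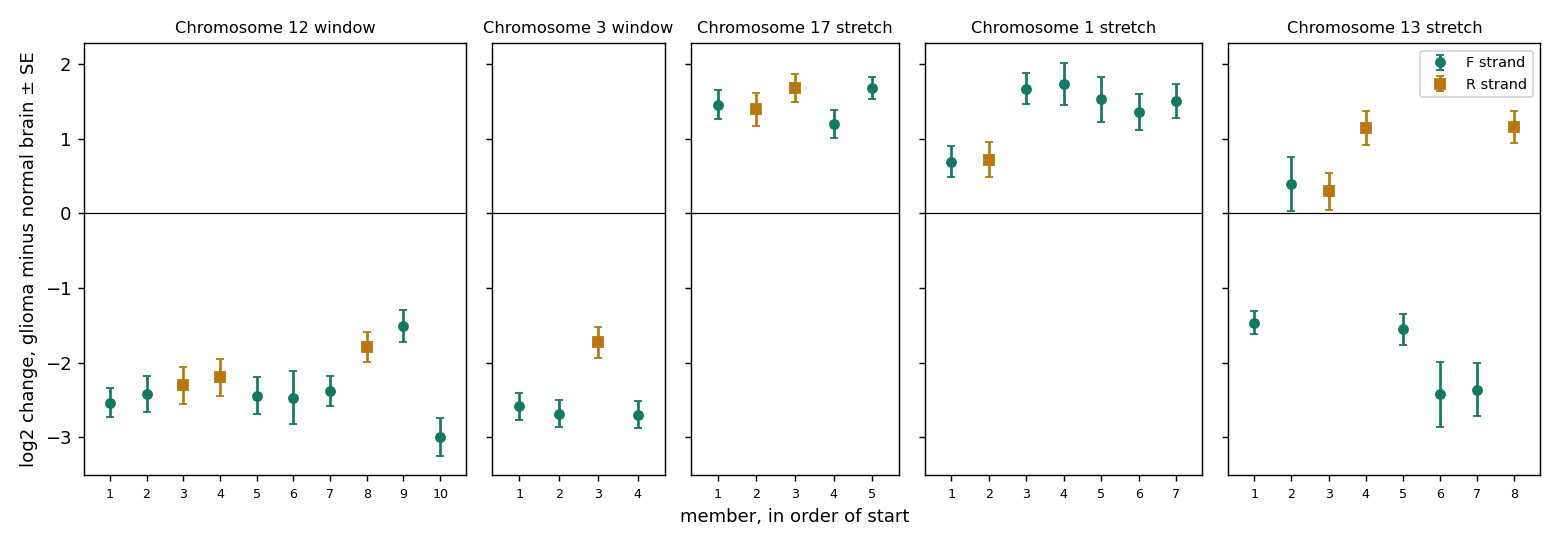
The log2 change, glioma minus normal brain, with its standard error (y axis) is shown for each member of 5 groups of neighbouring intervals, ordered by start along the chromosome (x axis), with green circles for F and orange squares for R. All 10 members on chromosome 12 lie between -1.51 and -2.998 and all 4 on chromosome 3 between -1.73 and -2.70. The 5 on chromosome 17 lie between 1.20 and 1.69, the 7 on chromosome 1 between 0.70 and 1.74, and on chromosome 13 the 4 called falls are F and the 2 called rises R.

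The array holds 1067 intervals on both strands of identical coordinates. Both strands were members in 257 of them, 1 strand in 369 and neither in 441. Of the 257 pairs, both strands were called higher in 27, both lower in 20 and in opposite directions in 1, with 1 strand called in 60 and neither in 149. The changes of the 2 strands had the same sign in 182 of 257 pairs (70.8%) and differed by a median of 0.37, with a Pearson correlation of 0.59 across pairs. Both strands of a pair were measured in the same RNA on the same arrays, so this correlation describes these samples only. How strictly the labelled cRNA and the probes separate the strands was not tested.

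The pair called in opposite directions was chr16:4525147-4542122, with -0.91 ± 0.23 on F (adjusted p = 0.0293) and 0.86 ± 0.22 on R (adjusted p = 0.0274). Among the 500 pairs that overlap on opposite strands, identical ones included, 49 were both higher, 34 both lower and 9 opposite. The 281 overlapping pairs on the same strand gave 44, 24 and 5. Opposite calls were therefore few in both kinds of pair, and no test was run between them.

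The overlapping pair with the largest difference in change was on chromosome 3. The 3724 bp interval chr3:34497447-34501170 R fell from -0.69 and -0.58 to -6.61, -4.84 and -6.61 (-5.38 ± 0.60, adjusted p = 0.00228), and none of its 3 probes was detected on all arrays. The 533972 bp interval chr3:34003359-34537330 F that spans it read -1.74, -1.57 and -0.60 against -2.43 and -2.55 (1.19 ± 0.38, adjusted p = 0.0540), and its probes ran from -0.11 to 2.75. With its brightest probe this F interval was called higher (2.75, adjusted p = 0.00766), and the R interval fell by 3.03 with normexp. Gliomas and normal brain did not overlap on either strand.

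On chromosome 14, chr14:105988692-105994145 F rose from -5.29 and -5.07 to 0.76, -0.34 and 0.48 (5.48 ± 0.36, adjusted p = 0.000765; 3.39 with normexp). The overlapping chr14:105987405-106063477 R changed by 0.58 ± 0.19 (adjusted p = 0.0584), although 1 of its 10 probes changed by 4.59. On chromosome 1, chr1:137503023-137625604 R rose from -5.73 and -5.71 to -1.74, -1.81 and -0.31 (4.44 ± 0.50, adjusted p = 0.00239; 2.09 with normexp), while the overlapping F interval chr1:137482591-137625604 changed by 0.18 ± 0.25. Of the 3 probes of each interval that rose, 1 on chromosome 14 and 2 on chromosome 1 were detected only in glioma. Both intervals thus passed the detection rule through glioma, so nothing is read from the separation of the groups. Their probes detected on all arrays changed by 5.05 and 5.21 on chromosome 14 and by 4.17 on chromosome 1.

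For chr10:117021051-117038683, F rose from -5.82 and -6.01 to -2.71, -2.06 and -2.48 (3.50 ± 0.24, adjusted p = 0.000796; 1.23 with normexp), and R stayed within 0.4 of a unit on all arrays, from -3.26 to -2.89 (-0.16 ± 0.16, adjusted p = 0.469). Of the 5 F probes, 4 were detected only in glioma. The F interval thus passed the detection rule through glioma, and its direction follows from that selection. The fifth pair was called in both directions: chr17:95150800-95180650 R fell by 2.31 on the log2 scale (SE 0.23, adjusted p = 0.00181; -1.48 with normexp) and chr17:95158347-95160942 F rose by 1.98 ± 0.36 (adjusted p = 0.0101). This F interval was dim, with no probe detected in normal brain. It passed the detection rule through glioma, so its direction follows from that selection and the opposite calls are not read further. It lost its call with normexp (0.25, adjusted p = 0.302) and without either normal brain (changes of 2.02 and 1.93).

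**Figure D4:**
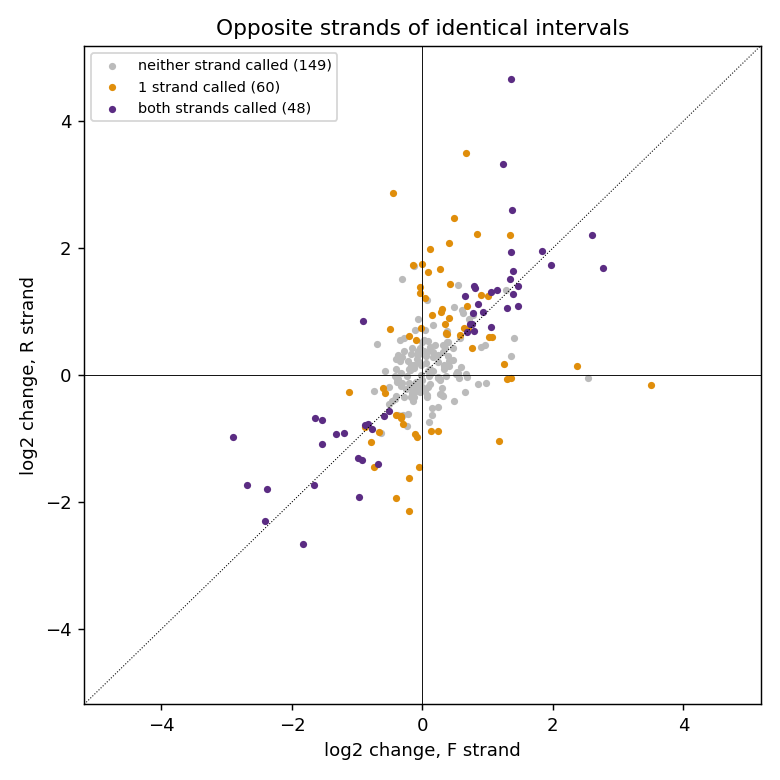
Each point is 1 of 257 intervals with both strands among the members, with the log2 change of the F strand on the x axis and of the R strand on the y axis, and a dotted line where both are equal. Purple points have both strands called (48 pairs), orange points 1 strand (60) and grey points neither (149). A single purple point lies in a quadrant of opposite signs, the interval on chromosome 16.

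The gliomas differed among themselves more than the normal brains did. The range over the 3 gliomas had a median of 0.54 in the members and 0.51 in all targets, and the range over the 2 normal brains had medians of 0.17 and 0.12. A range of 3 values is wider than one of 2 even at equal spread, so these are not a test. Glioma 3 was the highest glioma in 900 members and glioma 1 the lowest in 635. Relative to the other gliomas, the medians over the members were -0.13, -0.12 and 0.24 for gliomas 1 to 3.

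The glioma range exceeded 2 in 45 members, and in 33 of these glioma 1 was the lowest. The widest was chrX:47890565-47915775 F, at -0.14, -1.39 and -5.33 in gliomas 1 to 3 and -0.40 and -0.37 in normal brain. Glioma 1 stood at the level of normal brain and glioma 3, the sample that differs in sex, about 5 units below it, and the group change was -1.90 ± 1.55 (adjusted p = 0.365). Without glioma 3 it was -0.38 (adjusted p = 0.541).

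In the other 4 of the 5 widest intervals glioma 1 was the lowest glioma. The chr5:15146475-15170100 F interval read -3.24, 0.54 and -0.19 against -2.90 and -1.81, so gliomas 2 and 3 lay above normal brain and glioma 1 below it. Without glioma 1 it was called higher (2.53, adjusted p = 0.0231), and with all arrays it was not (1.39 ± 1.19, adjusted p = 0.386). The chrX:122184810-122500048 F interval read -6.79, -2.73 and -4.44 against -5.17 and -4.61, and chr18:38478632-38482159 F read -7.71, -4.17 and -4.22 against -6.97 and -4.44. No probe of these 2 was detected on all arrays, and the second also differed by 2.53 between the normal brains. The chr3:108763862-108772151 F interval, with 8 probes, read -5.60, -3.81 and -2.19 against -5.35 and -4.95 (1.28 ± 0.98, adjusted p = 0.339). All 8 probes gave a positive group change, but 4 of them were detected only in glioma, so nothing is read from their shared sign.

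Chromosome 7 held 8 of the 45 wide intervals, among 75 members. All 8 lay in a window from 66562376 to 69131056 bp, with 16 members out of 23 intervals on the array. The window was built outward from a wide interval, joined at gaps of up to 2000000 bp and chosen after its values were seen. The gliomas were ordered alike through most of it: glioma 1 was the lowest in 14 of 16 members and glioma 3 the highest in 15. Relative to normal brain the medians were -2.16, -0.73 and -0.21 for gliomas 1 to 3. The median range was 1.98 among gliomas and 0.06 between normal brains. Over all members glioma 1 was the lowest in 41.3% and glioma 3 the highest in 58.5%.

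The chr7:67119535-67120213 R interval shows the order, at -3.25, -2.04 and -0.83 in gliomas 1 to 3 and -0.22 and -0.19 in normal brain (-1.84 ± 0.70, adjusted p = 0.0889). Further along the chromosome, chr7:69117827-69127242 R read -3.07, -1.43 and -0.60 against -1.13 and -1.15 (-0.56 ± 0.73, adjusted p = 0.568). Neither passed, and in both the gliomas differed by over 2 units from each other. The 2 members that were called were chr7:66562376-66579519 R, at -2.31, -2.58 and -1.35 against 0.06 and 0.08 (-2.15 ± 0.39, adjusted p = 0.00994), and chr7:66570691-66573827 R, at -4.91, -4.74 and -3.51 against -2.47 and -2.56 (-1.87 ± 0.46, adjusted p = 0.0247).

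The F strand of chr7:66562376-66579519 read -2.66, -2.22 and -1.55 against -1.96 and -1.89 (-0.21 ± 0.35, adjusted p = 0.648), so only its R strand was called lower. On that R strand glioma 2, not glioma 1, was the lowest glioma. The order was reversed in chr7:69024136-69131056 F, at -1.25, -1.39 and -1.49 against -1.74 and -1.79 (0.39 ± 0.15, adjusted p = 0.0917). It overlaps 4 R intervals that were lowest in glioma 1, while on this strand glioma 1 was the highest array. The number of calls in the window depended on the arrays used: 8 without glioma 3, 1 without glioma 1, 1 without glioma 2 and 0 without either normal brain.

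**Figure D5:**
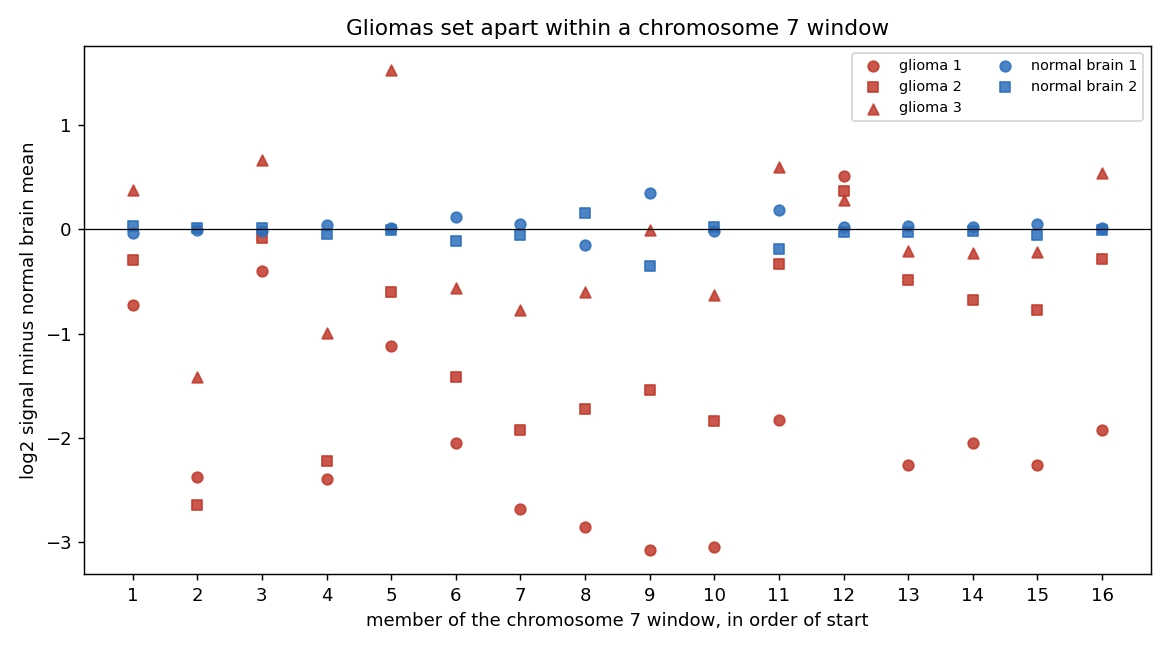
The log2 signal minus the normal brain mean (y axis) is shown on each array for the 16 members of the chromosome 7 window, ordered by start (x axis). Red circles, squares and triangles are gliomas 1, 2 and 3, and blue circles and squares normal brains 1 and 2. Glioma 1 is the lowest glioma in 14 of the 16 and glioma 3 the highest in 15, and the normal brains lie close to 0.

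Probes of one interval share the samples and are not replicates, and their changes are only set side by side here. All detected probes changed in the direction of the mean in 929 of 1539 members (60.4%) and in 479 of the 535 called (89.5%). The SD of the change between probes had a median of 0.35 in all members and 0.41 in the called ones. Single probes of the same interval were called in both directions in 34 members, 6 of them called as intervals.

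The disagreement was largest in chr8:67542714-67561694 F, where 5 of 10 probes were detected and their changes ran from -4.56 to 6.10 around a mean of 2.59 ± 0.56 (adjusted p = 0.0170). This call was lost without either normal brain (adjusted p = 0.0878 and 0.0727), with normexp (0.94) and with all 10 probes averaged (1.14). The chr6:129151512-129208737 F interval had 3 detected probes that ran from -4.10 to 3.99 and averaged -0.04 ± 0.22. Of the 5 detected chr8 probes, 3 were detected only in glioma and 1 only in normal brain. Of the 3 detected chr6 probes, 1 was detected only in glioma and 1 only in normal brain. Both intervals needed such probes to pass the detection rule. The direction of such probes follows from how they were detected, so nothing is read from their opposite signs.

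In chr5:92548501-92566401 F the choice of probe set the sign. The mean of its 3 detected probes was 0.92 ± 0.26 (adjusted p = 0.0370), while its brightest probe fell, at -0.79 (adjusted p = 0.00958). Its other detected probes changed by -0.18 and 3.74, and the latter was detected only in glioma. Its call was also lost without normal brain 1 or 2, without glioma 2 or 3, with the replicate block and with normexp. The chr9:68349343-68411643 R interval, not called as a mean (0.94 ± 0.45, adjusted p = 0.146), had a brightest probe that fell by 2.87 (adjusted p = 0.00453).

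Calls were found on every chromosome with members. They are set here beside those of the other intervals tested, which have fewer detected probes and were called less often (23.4% against 34.8% of members). Over all targets on all chromosomes, 21.8% were higher and 22.2% lower. On chromosome 1, 35 members of 104 were higher (33.7%) and 10 lower, against 21 and 12 of 170 other intervals. Chromosomes 13, 11 and 17 had similar shares of higher members, at 33.7%, 32.8% and 30.1%. Chromosome 12 had 10 higher and 16 lower of 72, of which the window above holds 10, against 11 and 12 of 105. Chromosome 7 had 4 and 12 of 75, against 10 and 12 of 102. Chromosome 19 had 0 higher and 6 lower of 33 in the limma fit (1 and 7 at an unadjusted p under 0.05), against 2 and 5 of 47. Its lower share of 18.2% was near those of chromosomes 14 (19.2%) and X (21.2%), where 24.7% and 21.2% were higher. No test was made between chromosomes, whose members include overlapping intervals. By length, the split was 112 higher and 66 lower among the 514 shortest, 120 and 58 among the next 513, and 104 and 75 among the 512 longest.

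The rule keeps intervals with 3 detected probes and drops those with 2. The 883 intervals just inside, with exactly 3, had a median signal of -3.46 and a median change of 0.14, and the 832 just outside, with exactly 2, had -4.06 and 0.01. The brightest just inside are the 5 bright intervals given above. The brightest just outside were chr19:56820850-56837925 R at 3.91, chrX:138967807-138968413 R at 3.60, chr16:90038086-90127636 F at 3.36, chr8:74820025-74833350 F at 2.32 and chr2:174945941-174946507 R at 2.21. Their changes were 0.56, -0.49, -0.68, 0.97 and 0.20. Of all other intervals with at least 1 detected probe, 23.4% of 2122 were called, 13.8% higher and 9.57% lower.

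Long noncoding RNAs that do have names on the array give a measure beside the unnamed intervals. Of a list of 42, 27 were on the array and 25 were tested, 7 of them higher and 8 lower, with a median change of -0.28. The rises included Crnde (2.09 ± 0.43), Pvt1 (1.60 ± 0.20) and the small nucleolar RNA host Snhg5 (1.06 ± 0.17), beside Mir17hg. The falls included Dlx6os1 (-3.38 ± 0.18), which is transcribed antisense to the homeobox gene Dlx6, Six3os1 (-2.99 ± 0.65), Neat1, a scaffold of nuclear paraspeckles (-1.96 ± 0.44), and Norad (-1.73 ± 0.16), beside Meg3 and Mirg. Malat1, an abundant nuclear RNA and like Neat1 a chromosome 19 gene, changed by -0.44 ± 0.35 (adjusted p = 0.348).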

How the data were processed

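Cy3-labelled cRNA of each sample was hybridised to 1 array. The intensity of each spot and its 0 or 1 flags (a score of detection and outliers) are deposited values that the authors produced, per the submitters' processing notes, by Agilent Feature Extraction 10.7.3.1. The authors' deposited log2 values equal the log2 of that processed signal (largest difference 0.05). The members and lists were chosen with earlier results of these data known.

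Control spots and 23 probes with outlier flags were left out, and each target was the mean of its probes detected on at least 2 arrays. The comparison used limma 3.58.1 (two-sided moderated tests from lmFit and eBayes, Benjamini-Hochberg adjustment over 28334 targets, threshold 0.05), R 4.3.3, version 1.17.8 of data.table, Python 3.11.15, pandas 2.3.3 and matplotlib 3.10.9. The fit was tested on simulated data. Named intervals are the 10 largest rises and falls detected on all arrays without overlap, the 5 largest bounds, signals, glioma ranges, probe spreads and strand differences. Stretches, windows and their members were chosen after their values were seen. The files hold no mean-signal column, so normexp used the median signal. Same-numbered samples deviated together with correlations of 0.01 and 0.05, so the numbers were not taken to pair samples. The number of arrays limits the precision.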

Additional observations from a re-analysis of the deposited data

How the results depend on the processing

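The number of arrays, above all the 2 normal brains, and the dim signal of most members limit these results. Of 766 values of the 49 named intervals under the alternatives, 701 kept their direction and their side of the threshold, 27 lost the call, 15 gained it and 23, in 10 intervals, changed sign. Of these 23, 21 were called neither before nor after. With the brightest probe the reversed values were -0.79 for chr5:92548501-92566401 F, called before and after, -2.87 for chr9:68349343-68411643 R, called only after, -0.23 for chrX:122184810-122500048 F, -0.33 for chr14:105987405-106063477 R and -0.34 for chr1:137482591-137625604 F. With normexp they were -0.043 for chr18:38478632-38482159 F, -0.18 for the chr9 interval and -0.24 for the chr1 interval. The unscaled table gave 0.23 for chr19:5801802-5802597 R, 0.039 for chr19:5798135-5800557 R, 0.31 for chr6:129151512-129208737 F and 0.20 for chr10:117021051-117038683 R. The chr6 interval was at 0.15 with quantile normalization and 0.0039 with the percentile over probes detected on all arrays, and the chr18 interval at -0.24 with the replicate block. Without 1 array the values ran from -0.93 to 1.60 for the chr18 interval, -0.72 to 1.31 for the chrX interval, -0.24 to 0.15 for the chr6 interval and -0.044 to 0.40 for the chr1 interval. Leaving out 1 array at a time gave 224 to 589 called members, 134 to 350 higher and 86 to 239 lower, and medians from 0.08 to 0.23. Normexp, chosen after seeing the data in this form, gave 169 higher and a median of -0.11. The unscaled table gave 570 higher, 130 lower and a median of 0.52. Probes detected on all 5 arrays gave 341 called, 178 higher and a median of 0.012, over 945 members, with 11218 calls over all targets. At least 5 detected probes gave 140 called of 396 intervals, 98 higher and 42 lower, beside 12456 calls over all 28334 targets. With the replicate block 499 were called, 301 higher and 198 lower, with 11423 calls over all targets. Normexp on the mean signal was not run. The cause was not tested.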
